A study of Mus musculus with 30 samples.

Results

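The 11 cell lines described here, DMSO 1 to DMSO 11, were drug-free control lines that were carried in parallel, and the question was which genes came to differ among them although all were handled alike. They were all of the libraries with a title from DMSO 1 to DMSO 11, 11 of the 30 libraries of the series and 11 of the 12 with a DMSO label. DMSO 12 was left out because its label was in doubt, and no drug-selected line was used. All 11 came from the murine Eµ-Myc; p19ARF -/- line, a suspension B-cell lymphoma in which the Eµ immunoglobulin enhancer drives Myc in B-lineage cells and the p19ARF tumor suppressor is deleted. It serves as a model of Burkitt's lymphoma. Each line was kept in its own well of a 96-well plate through weekly cycles. A cycle was 3 days of DMSO, the solvent of most of the drugs, and 4 days of plain medium. Wells were split at each cycle and part of the cells was carried on. The lines are populations and were not described as single-cell clones. Each gave 1 RNA library, and the starting culture was not analysed here, so a value that differs between lines has no direction in time.

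Parallel cultures can diverge when inherited differences between cells, in chromosomes or in stable patterns of gene activity, rise or fall in each culture on their own. Whether this took place here was not tested. B-lineage lymphoma cells add particular sources of diversity. Their immunoglobulin light chain loci can be rearranged further while the Rag1 and Rag2 recombinase is made, and surface molecules and antigen presentation genes change with the stage of B-cell development. With 1 library for each line, a lasting difference between lines and the state of the culture on the day of RNA collection cannot be told apart.

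The libraries held between 1053948 counts (DMSO 9) and 6739131 counts (DMSO 11), with a median of 4235788, so the deepest was 6.39 times the shallowest. Levels below are CPM, the counts of a gene scaled to library size with trimmed-mean (TMM) factors. In CPM, 3 counts were worth 0.438 in DMSO 11 and 2.72 in DMSO 9. Since the assay counts 3′ ends, they are not per unit of transcript length and are compared between lines, not between genes. In all 11 libraries Myc lay between 654 and 1121 CPM, and Cdkn2a, the gene that encodes p19ARF, had 0 counts. The B-cell markers Cd79b (1180 to 2094 CPM) and Pax5 (23.5 to 104 CPM) were present in every line. The 5 T-cell markers summed to 0.552 to 6.57 CPM, with Cd3e at 0 in every line, and the 4 red cell markers to at most 0.183 CPM, with 3 of the 4 at 0 throughout. Outside these marker sets, the globin gene Hbb-bt was at 7.01 to 66.2 CPM and the T-cell kinase gene Lck at 0.146 to 11.1 CPM, and both were variable (adjusted p = 2.65e-05 and 0.00639, edgeR deviance test described below). The 7 myeloid markers summed to 1.66 to 26.5 CPM, almost all of it Itgam, with 5 of the 7 at 0 throughout. The libraries of DMSO 11, DMSO 8 and DMSO 3 stood apart in their RNA make-up. Mitochondrial ribosomal RNA took 10.5%, 4.55% and 2.29% of their counts and at most 1.41% in the other lines, and protein-coding genes took 81.7%, 88.9% and 92.4% against 93.4% to 95.8%.

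Of 9041 genes with a mean of at least 3 CPM, 8434 (93.3%) varied between the 11 lines by more than counting error (Poisson deviance, Benjamini-Hochberg adjusted p under 0.01). After all libraries were thinned to the depth of the shallowest, 5563 did. A stricter test compared each gene with the spread typical of genes at its level, which includes counting, library preparation and ordinary variation between cultures. By that test 316 genes, 3.5% of those tested, were variable (edgeR deviance at the trended dispersion, adjusted p under 0.01). Their median coefficient of variation between lines was 0.797, against 0.263 for all genes tested. The deepest library weighed on this set, since 219 of the 316 were also called without DMSO 11. DMSO 11 held the highest level for 102 of the 316 genes (32.3%) and 31.1% of all genes tested. DMSO 5 held the lowest level for 70 of them (22.2%), against 10.3% of all genes.

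Some gene lists held a larger share of variable genes than all genes did. None of 80 tested genes for cytosolic ribosomal proteins, 72 nuclear genes of the respiratory chain, 58 for ribosome biogenesis, 52 for DNA repair or 44 for G2/M and mitosis was among the variable genes. With 3.5% of all genes called, 0 in a single list of such size is not far from that share. Without DMSO 11, 1 ribosomal protein gene, Rps4x, was called (adjusted p = 0.00783, edgeR deviance). The respiratory chain list does not hold Cox6a2, a nuclear cytochrome c oxidase gene that was itself among the most variable. The median coefficient of variation was 0.154 for the ribosomal protein genes and 0.183 for the respiratory chain genes. The median levels of these lists were 431 and 525 CPM against 22.5 CPM for all genes tested, and coefficients were not compared at matched level. At the other end, 6 of 8 MHC class II genes (75%), 15 of 35 genes of the amino acid stress response (42.9%), 7 of 17 immunoglobulin genes (41.2%) and 7 of 18 glycolysis genes (38.9%) were variable, against the 3.5% of all genes. Interferon-induced genes (6 of 29, 20.7%), cholesterol synthesis genes (4 of 22, 18.2%) and B-cell identity and receptor signalling genes (8 of 46, 17.4%) were intermediate. Without DMSO 11, all 6 of the MHC class II genes, all 7 of the immunoglobulin genes and 7 of the 8 B-cell genes were still called, whereas 7 of the 15 amino acid genes, 2 of the 7 glycolysis genes and 0 of the 4 cholesterol genes were.

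**Figure D1:**
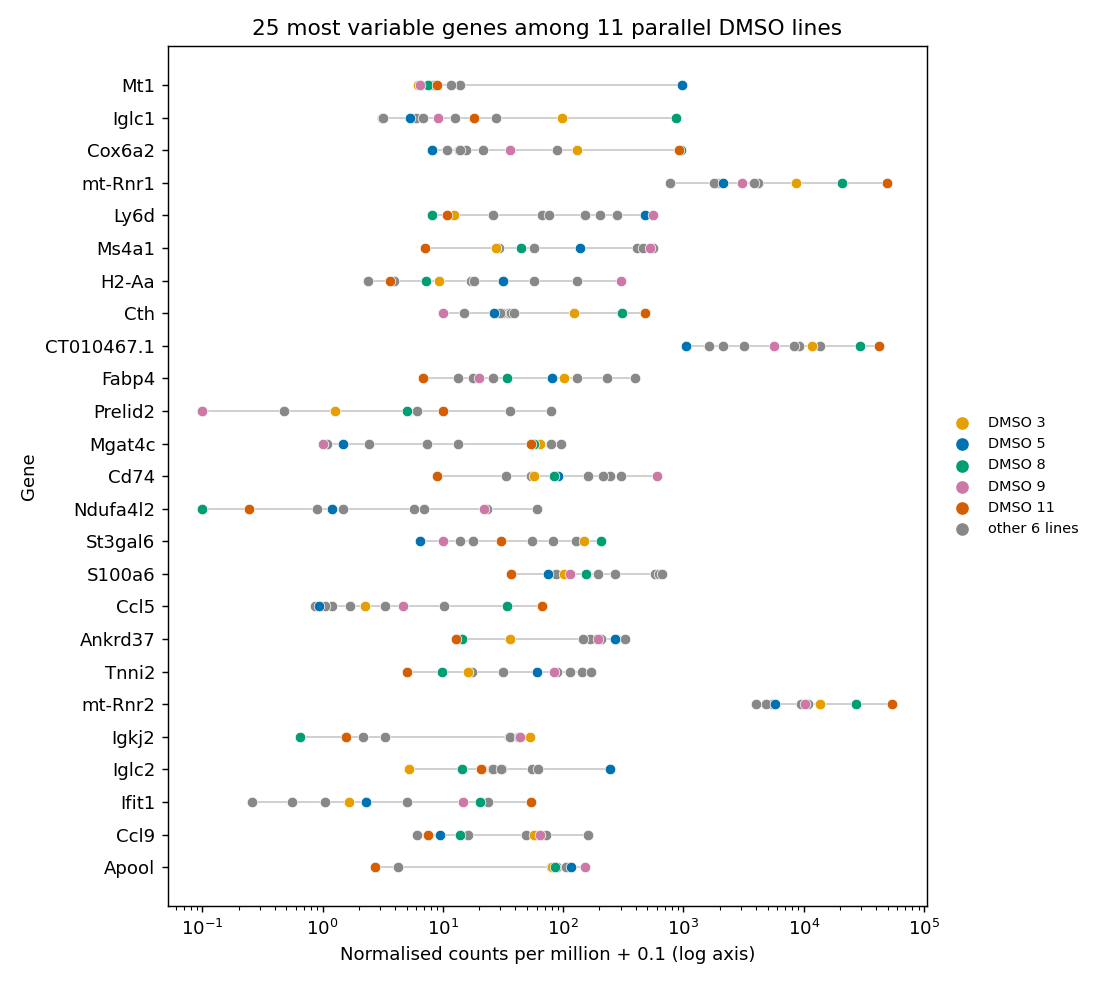
Levels of the 25 most variable genes (mean of at least 10 CPM, largest deviance at the top) in the 11 DMSO lines, with CPM plus 0.1 on a log x axis and 1 point for each line; 5 lines are coloured and the other 6 are grey. Mt1 stands apart in DMSO 5 alone and Iglc1 in DMSO 8, while Ms4a1, H2-Aa and Cd74 spread over the whole set of lines.

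RNA levels of several genes for B-cell surface molecules differed widely from line to line. Ms4a1, which encodes the B-cell antigen CD20, measured 414, 462, 27.3, 57.2, 139, 543, 555, 44.2, 527, 29.4 and 7.01 CPM in DMSO 1 to DMSO 11. DMSO 1, 2, 6, 7 and 9 all exceeded 400 CPM and DMSO 3, 4, 8, 10 and 11 all stayed below 60, with DMSO 5 between them. Ly6d, a surface protein of early B-lineage cells, ranged from 8.01 CPM in DMSO 8 through a median of 76.8 to 560 CPM in DMSO 9. It was low in DMSO 3, 8 and 11 (12.3, 8.01 and 10.7 CPM) and stood at 481 CPM in DMSO 5, where Ms4a1 was intermediate. Itgb7, an integrin subunit for homing of lymphocytes, ranged from 2.34 CPM in DMSO 11 to 59.0 in DMSO 7.

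MHC class II molecules present peptides to helper T cells, and this set of genes had the widest spread of all the lists. H2-Aa, the alpha chain of the I-A molecule, measured 16.9, 129, 9.18, 3.79, 31.5, 56.9, 18.1, 7.18, 304, 2.30 and 3.50 CPM in DMSO 1 to DMSO 11. DMSO 9 and DMSO 2 were the highest and DMSO 10, 11 and 4 the lowest, and between DMSO 9 and DMSO 10 the level differed by more than 2 orders of magnitude. Cd74, the invariant chain that accompanies class II molecules, went from 8.76 CPM in DMSO 11 through a median of 90.5 to 601 CPM in DMSO 9. The peptide-loading chaperone genes H2-DMa (0.316 to 67.1 CPM) and H2-DMb2 (0.146 to 60.7 CPM) and the I-E beta chain gene H2-Eb1 (0.460 to 66.2 CPM) were also highest in DMSO 9 and next highest in DMSO 2. The median log2 ratio of the 8 class II genes to the middle line was 3.00 in DMSO 9, 2.00 in DMSO 2 and 1.22 in DMSO 6. It was -1.95 in DMSO 11, -1.63 in DMSO 4 and -1.53 in DMSO 10. All 8 genes lay above the middle level in DMSO 9 and DMSO 6, where 49.99% and 42.8% of all genes did, and 0 of 8 in DMSO 11 and DMSO 4, where 49.99% and 48.3% did. The library of DMSO 9 was the shallowest of the 11, and the part of depth in its values was not tested. The low ends rested on few counts, with 5 for H2-Aa in DMSO 10 and 2 for H2-DMa in DMSO 4. H2-DMb2 in DMSO 11 and H2-Eb1 in DMSO 10 had 1 count each, so the size of these ranges is uncertain.

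Class I molecules, which every nucleated cell uses to present internal peptides, varied less and were low in another line. Their list had a median log2 ratio of -1.01 in DMSO 5, where 12 of its 14 tested genes lay below the middle level and 10 were the lowest of all 11 lines, beside 4214 of all 9041 genes below the middle level and 10.3% of all genes lowest in that line. H2-D1, a classical class I heavy chain gene, measured 24.6 CPM in DMSO 5 and 42.3 to 123 CPM in the others, and H2-K1, the other classical heavy chain, 1.11 CPM against 1.26 to 44.5. These 2 genes are close in sequence and their reads may be shared. In the list 1 gene, H2-K1, was variable (7.14% against 3.5% of all genes), with its highest level in DMSO 11 and an adjusted p of 0.0761 by the edgeR deviance test without that line, where H2-D1 and H2-M3 were called instead, and no class I gene passed the test of DMSO 5 against the other lines.

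Of 17 tested immunoglobulin genes, 7 were variable and 10 were not, and a few kappa segments had a gap between lines. Igkj2, a joining segment of the kappa light chain locus, measured 35.1 to 52.5 CPM in DMSO 2, 3, 4, 5, 6, 7 and 9 and 2.09, 0.552, 3.22 and 1.46 CPM in DMSO 1, 8, 10 and 11. No line lay between 3.22 and 35.1 CPM. Igkv4-68, a kappa variable segment, was at 0.190, 0, 0.460 and 0 CPM in DMSO 1, 8, 10 and 11 and at 4.53 to 14.3 CPM in the other lines. Igkv4-63, another kappa variable segment, had the opposite arrangement, with 15.4, 6.63, 14.3 and 5.26 CPM in DMSO 1, 8, 10 and 11 and at most 0.914 CPM elsewhere. Igkj4, a further joining segment, was at 12.3, 8.28, 10.6 and 6.13 CPM in those 4 lines and also at 8.88 CPM in DMSO 6, with at most 1.37 CPM in the rest. All 4 segments were variable (adjusted p from 1.83e-19 to 0.000476, edgeR deviance), and the same 4 lines stood apart in Igkj2, Igkv4-68 and Igkv4-63. The other called kappa gene, Igkv19-93, had no such gap and ranged from 9.86 CPM in DMSO 6 through a median of 33.5 to 88.3 CPM in DMSO 10. The counts behind the V segments were small, 81 at most for Igkv4-63 (DMSO 1), and V segments of a family share sequence. The kappa constant gene Igkc, which every kappa transcript carries, stayed between 3247 and 9387 CPM, and the heavy chain gene Ighm between 2663 and 6134 CPM.

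Of the lambda light chain genes, Iglc1 and Iglc2 were variable and Iglc3 and Iglv1 were not. Iglc1, a lambda constant gene, measured 3.03, 5.85, 97.6, 6.79, 5.26, 12.5, 3.05, 864, 9.06, 27.6 and 18.1 CPM. DMSO 8 was thus far above every other line and DMSO 3 was second. In the test of DMSO 8 against the other 10 lines with DESeq2, Iglc1 was the only gene called, whereas edgeR called none. Iglc2 was instead highest in DMSO 5 at 245 CPM, with 62.1 CPM at most elsewhere, and its lowest level, 5.08 CPM, was in DMSO 3. Iglc3 varied less, from 52.3 to 232 CPM. The lambda constant genes are similar in sequence, so reads may be shared among them. The recombinase genes behind light chain rearrangement were themselves variable. Rag1 measured 4.55, 7.87, 49.0, 9.47, 32.6, 5.59, 3.52, 47.0, 0.906, 11.0 and 77.2 CPM, high in DMSO 3, 5, 8 and 11. Rag2 was also above 27 CPM in these 4 lines and ranged from 0.906 CPM (DMSO 9) to 43.1 CPM (DMSO 3), with 26.2 CPM in DMSO 10. Il7r, the receptor for interleukin 7, a growth factor of B-cell progenitors, was at 78.1, 93.6 and 114 CPM in DMSO 3, 8 and 11 and at 10.9 to 53.2 CPM in the others, except for DMSO 5 at 1.11 CPM. Cd93, an early B-lineage surface protein, was at 121 to 128 CPM in DMSO 3, 8 and 11 and at 16.9 to 62.1 CPM elsewhere. DMSO 3, 8 and 11 also had the largest mitochondrial ribosomal RNA shares, and the part of RNA make-up in these values was not tested.

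The amino acid stress response is driven by the transcription factor ATF4, which raises amino acid transporters, synthetic enzymes and tRNA synthetases when amino acids are short. ATF4 with a partner binds composite elements that share the core TGATGNAA. The promoter windows of 6 variable genes of this list that hold that core are shown because they are the variable members with a match, each with 8 flanking bases on both sides and the match in capitals. They are RefSeq sequence of GRCm38.p6 from 250 bases before to 50 bases after the annotated start, read 5′ to 3′ on the strand of the match.

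Trib3, chr2:152344031-152344054 (+): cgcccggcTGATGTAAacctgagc
Asns, chr6:7693217-7693240 (-): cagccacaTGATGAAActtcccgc
Slc1a4, chr11:20332702-20332725 (+): gctggagaTGATGCAAcgcaggag
Nupr1, chr7:126625565-126625588 (+): gccctgtcTGATGCAAtctggccc
Aars, chr8:111033722-111033745 (-): ggctcggcTGATGCAAtgctcaag
Aars, second match, chr8:111033843-111033866 (-): gagcgctcTGATGAAAagtgaccc
Gars, chr6:55037963-55037986 (-): ccggtgcaTGATGAAAtagcgcag

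On either strand, the core occurred in 4.06% of the 27025 promoters of the table and in 2.14% of the 6932 promoters of tested genes. Among tested members of the list it occurred in 10 of 27 (37%), in 6 of the 11 variable members with a promoter entry (54.5%) and in 4 of the 16 that were not variable (25%). A match describes the letters and is not evidence of binding.

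Asns, asparagine synthetase, measured 233, 304, 638, 309, 437, 249.2, 250, 777, 226, 357 and 662 CPM in DMSO 1 to DMSO 11. DMSO 8, 11 and 3 were the 3 highest lines and DMSO 5 came next. Cth, an enzyme of cysteine synthesis, showed the same lines with wider steps, at 124, 308 and 476 CPM in DMSO 3, 8 and 11 and 9.97 to 38.6 CPM in the others. Its adjusted p was 1.22e-39 in the deviance test over the 11 lines. Nupr1, a stress-induced chromatin protein, was at 13.5, 11.3 and 14.2 CPM in DMSO 3, 8 and 11 and at 0.316 to 6.58 CPM elsewhere. Atf4 itself measured 436 CPM in DMSO 11, 274 in DMSO 8 and 187 in DMSO 3, with 86.4 to 124 CPM in the other lines. Trib3, a pseudokinase that is a target of ATF4 and CHOP, met the mean level needed for testing only through DMSO 11. It reached 21.2 CPM in DMSO 11 and 6.63 in DMSO 8, with at most 3.05 CPM in the other lines. In contrast, Ddit3, which encodes CHOP, was highest in DMSO 8 at 52.2 CPM, followed by DMSO 9 at 25.4 and DMSO 11 at 23.1. Slc1a4, a neutral amino acid transporter gene, was at 56.2 CPM in DMSO 11, 20.2 in DMSO 8 and 11.9 in DMSO 3 and at 2.63 to 6.81 CPM elsewhere. Aars, alanyl-tRNA synthetase, was at 294, 124 and 102 CPM in the same lines and at 33.6 to 65.4 CPM elsewhere. The tRNA synthetase gene Gars and the amino acid transporter gene Slc7a5 stood out in DMSO 11 only, at 397 CPM against 57.6 to 137 and at 144 CPM against 9.33 to 23.5.

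Over the whole list the median log2 ratio to the middle line was 1.18 in DMSO 11, 0.84 in DMSO 8 and 0.46 in DMSO 3 and lay between -0.20 and 0.07 in the other 8 lines. In these 3 lines 34, 33 and 30 of the 35 genes lay above the middle level, where 49.99%, 44.1% and 46.8% of all genes did. Against the other 10 lines, 13 of the 35 were significantly higher in DMSO 11 and 0 lower, while 6.92% of all genes were higher. The order of DMSO 11, 8 and 3 is also the order of their mitochondrial ribosomal RNA shares, and the part of RNA make-up in these values was not tested.

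Glycolysis ran the other way in DMSO 11 and DMSO 8. Aldoa, aldolase, measured 596 CPM in DMSO 11 and 978 in DMSO 8 against 1944 to 3450 CPM in the other lines, and Eno1, enolase, 604 and 1027 CPM against 1665 to 3129. In both genes DMSO 11 and DMSO 8 lay below every other line. Pfkl, a phosphofructokinase subunit, was at 18.6 and 16.02 CPM in DMSO 11 and 8 and at 41.4 to 92.8 CPM elsewhere. The list of 18 had a median log2 ratio of -1.41 in DMSO 11 and -0.94 in DMSO 8 and -0.15 to 0.32 in the others. Of its members, Ldha and Gpi1 were significantly lower in DMSO 11, and the lactate transporter gene Slc16a1 was significantly higher at 360 CPM against 72.8 to 140, beside 1.24% of all genes lower and 6.92% higher in that line. Across all genes, most lower calls of DMSO 11 were lost when p was adjusted over the comparisons of all lines together. All tested genes at or above 300 CPM had a median of -0.49 in DMSO 11 and -0.03 in DMSO 8, the 2 lines with the largest mitochondrial ribosomal RNA shares, and the part of RNA make-up was not tested. Aldoc, the brain-type aldolase gene, behaved separately, with 17.2 CPM in DMSO 1, 20.5 in DMSO 5 and at most 2.30 CPM in the rest. Among genes induced by hypoxia, Ankrd37 was low in the same lines and in DMSO 3, at 12.7, 14.4 and 35.7 CPM in DMSO 11, 8 and 3 against 147 to 327 in the other lines, and Bnip3 was at 6.13 and 16.02 CPM in DMSO 11 and 8 against 31.7 to 89.2. In contrast, Vegfa, a vascular growth factor gene, was highest in DMSO 11 at 21.6 CPM and at 1.81 to 10.8 CPM elsewhere, and did not pass the test over the 11 lines (adjusted p = 0.863, edgeR deviance). The hypoxia list as a whole was closer to 0, with medians of -0.32 and -0.49 in DMSO 11 and DMSO 8, and DMSO 11 had the highest level of 5 of its 20 genes and the lowest of 8, beside 31.1% and 20.8% of all genes.

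Cholesterol synthesis, which is controlled by SREBP2, was lowest in DMSO 11. Fdps, farnesyl diphosphate synthase, measured 37.7 CPM in DMSO 11 and 154 to 352 CPM in the other lines (log2 difference -2.50, SE 0.38, edgeR quasi-likelihood adjusted p = 0.000358). Hmgcs1, at the start of the pathway, was at 70.4 CPM against 208 to 480, and Msmo1, a sterol oxidase, at 70.5 CPM against 255 to 581. Significantly lower levels in DMSO 11 were found for 10 of the 22 genes and higher levels for 0, beside 1.24% of all genes lower in that line. With p adjusted over all 11 comparisons together only 3 genes of all those tested were lower in DMSO 11, so at least 7 of these 10 calls were lost. The list median was -1.34 in DMSO 11, where all tested genes at 50 to 300 CPM had a median of -0.25, and 0.48 in DMSO 9, where 21 of the 22 lay above the middle level, beside 49.99% of all genes. Only 2 of the 22 lay above it in DMSO 11 and also in DMSO 1, where the median was -0.22. The stearoyl-CoA desaturase gene Scd1 was also lowest in DMSO 11, at 66.0 CPM against 246 to 677.

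**Figure D2:**
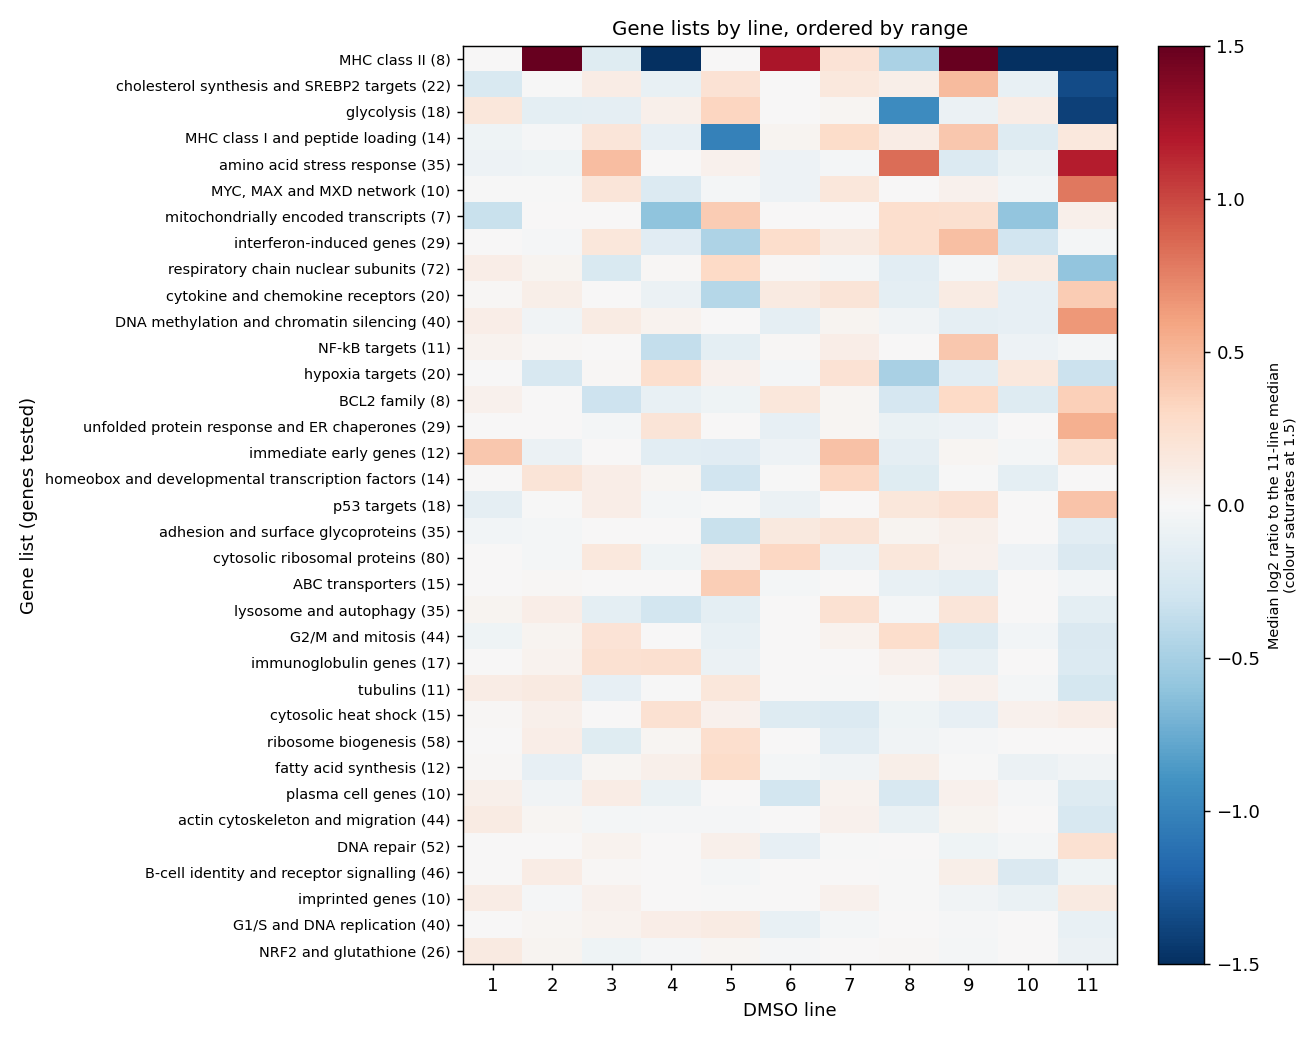
Median log2 ratio of each gene list (rows, tested genes in parentheses) in each DMSO line (columns) to the middle level of the 11 lines, with the lists ordered by their range; colours stop at 1.5, and the MHC class II values of DMSO 9, 2, 4, 10 and 11 lie beyond that. Most lists are near 0 in most lines, and the strong colours are MHC class II across several lines, cholesterol, glycolysis and amino acid stress in DMSO 11, and MHC class I in DMSO 5.

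Among inflammatory genes, single members varied strongly. Ccl5, a T-cell attracting chemokine, was at 66.7 CPM in DMSO 11, 34.2 in DMSO 8 and 10.2 in DMSO 6, with at most 4.53 CPM in the rest. Ifit1, an antiviral protein induced by interferon, followed with 53.4, 20.2 and 23.7 CPM in DMSO 11, 8 and 6, and 14.5 in DMSO 9, and with at most 4.93 CPM elsewhere. Oasl1 and Rsad2, which are induced in the same way, were also highest in DMSO 11, at 26.6 and 23.2 CPM, and met the mean level needed for testing only through that line. In contrast, the list of 29 interferon-induced genes had a median of -0.03 in DMSO 11, below the levels of these members. Its lowest median was -0.46 in DMSO 5, where 27 of the 29 lay below the middle level and 0 above, beside 4214 of all 9041 genes below it. Ccl9, another chemokine, had its own order, with 160 CPM in DMSO 1 and 6.00 to 16.1 CPM in DMSO 4, 5, 8, 10 and 11.

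The remaining genes among the 25 most variable have roles outside these lists. Cox6a2, a cytochrome c oxidase subunit best known from heart and muscle, measured 946 CPM in DMSO 8 and 919 CPM in DMSO 11, then 131 in DMSO 3 and 88.4 in DMSO 6, and 8.02 to 36.3 CPM in the other 7 lines. Tnni2, fast skeletal troponin I, ranged from 4.97 CPM in DMSO 11 through a median of 60.9 to 170 CPM in DMSO 7. Both are muscle genes by name, yet the lines highest in Cox6a2 were the lowest in Tnni2. Fabp4, a fatty acid binding protein, was highest in DMSO 7 at 392 CPM and DMSO 1 at 230 CPM and lowest in DMSO 11 at 6.72 CPM. S100a6, a calcium-binding protein, was at 574, 622 and 657 CPM in DMSO 1, 6 and 7 and at 36.8 to 271 CPM in the others. Mgat4c and St3gal6, a pair of glycosyltransferase genes for the sugar chains of glycoproteins, ranged from 0.906 to 95.3 CPM and from 6.36 to 206 CPM. Mgat4c was above 50 CPM in DMSO 3, 4, 8, 10 and 11 and at most 13.2 CPM in the other 6 lines. Ndufa4l2, a mitochondrial protein gene induced by hypoxia, reached 60.6 CPM in DMSO 7 and had 0 counts in DMSO 3 and DMSO 8. Prelid2, of a family of mitochondrial lipid carriers, was at 79.5 CPM in DMSO 6 and 36.3 in DMSO 10 and at 0 counts in DMSO 4, 5, 7 and 9. The mitochondrial ribosomal RNA genes mt-Rnr1 and mt-Rnr2 and the nuclear ribosomal RNA gene CT010467.1 were also in the set, highest in DMSO 11 and second in DMSO 8. The 7 tested messenger RNAs of the mitochondrial genome were not variable.

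The 7 tested messenger RNAs of the mitochondrial genome had their lowest medians in DMSO 4 (-0.61) and DMSO 10 (-0.60) and their highest in DMSO 5 (0.38). All 7 lay above the middle level in DMSO 5, 8 and 9, and mt-Nd5, a subunit of complex I, was highest in DMSO 11 at 581 CPM and next in DMSO 8 at 491 CPM. The 72 nuclear genes of the respiratory chain were lowest in DMSO 11 (-0.59) and highest in DMSO 5 (0.30), where 43 of them had their highest level of the 11 lines, as did 13.6% of all genes. In DMSO 11, 58 of the 72 had their lowest level, as did 20.8% of all genes, and 6 were significantly lower and 1 higher, beside 1.24% of all genes lower and 6.92% higher in that line. Most lower calls of DMSO 11 were lost when p was adjusted over all 11 comparisons together. None of the 72 was called variable over the 11 lines. Genes at or above 300 CPM, the level of many of the 72, had a median of -0.49 in DMSO 11 and 0.20 in DMSO 5.

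Targets of p53, which responds to DNA damage, were variable at 4 of 18 (22.2%, beside 3.5% of all genes). Zmat3, an RNA-binding protein, was at 41.0 CPM in DMSO 11 and 2.65 to 14.7 CPM in the others, and Plk2 ranged from 0 counts in DMSO 5 to 102 CPM in DMSO 9. Pmaip1, which encodes the death-promoting protein NOXA, ranged from 1.84 CPM in DMSO 10 to 23.2 CPM in DMSO 11. Psrc1, a mitotic spindle protein gene, was highest in DMSO 9 at 14.5 CPM and lowest in DMSO 5 at 0.277. DMSO 11 had the highest level of 8 of the 18, as it did of 31.1% of all genes.

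Each line was then compared with the other 10. DMSO 11 differed at 738 genes (8.16% of those tested), of which 626 (6.92%) were higher and 112 (1.24%) lower (edgeR quasi-likelihood test, adjusted p under 0.01). DMSO 5 differed at 10 genes (0.111%), 4 higher (0.0442%) and 6 lower (0.0664%). The count for DMSO 5 was 2 with the filterByExpr filter and 5 after thinning to equal depth. With p adjusted over all 11 comparisons together, DMSO 11 had 164 higher and 3 lower genes. The other 9 lines had 0 called genes by the test within each comparison. At an unadjusted p under 0.05 these 9 had 60 (DMSO 1) to 797 (DMSO 9) genes, beside 579 in DMSO 5 and 3232 in DMSO 11. DESeq2 called 1 gene in DMSO 8, 2 in DMSO 9, 18 in DMSO 5 and 1269 in DMSO 11. With 1 library on 1 side, the test assumes that the lone line varies like the others.

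The genes that were higher in DMSO 11, with p adjusted within that comparison, included Plxna1, a semaphorin receptor, at 24.97 CPM against 0.329 to 3.68 in the other lines (log2 difference 3.62). Plxna1 reached the mean level needed for testing only through DMSO 11, so its call adds no support to these values. The transcriptional coregulator Cited2 was at 39.7 CPM against 0.906 to 6.64 (3.20). Sun2, of the nuclear envelope, was at 28.8 CPM against 0 to 5.98, and Gpt2, a mitochondrial alanine aminotransferase, at 68.2 CPM against 0.940 to 13.5. All 4 lay outside the range of the other lines, as did each of the 738, while 51.9% of all genes tested had DMSO 11 at an extreme. The 112 genes that were lower by the same adjustment included Tuba1a, an alpha tubulin, at 24.7 CPM against 119 to 302, and Apobec2, of the cytidine deaminase family, at 2.63 CPM against 15.4 to 61.6. Btla, an inhibitory receptor of lymphocytes, was at 3.65 CPM against 21.3 to 61.6, Slc15a3, an endosomal peptide transporter, at 4.23 against 15.6 to 55.3, and Gfi1b, a transcriptional repressor, at 1.31 against 7.36 to 25.5. The calls of Rsad2, Gpt2, Trib3, Apobec2, Gfi1b and Scd1 depended on single libraries among the other 10, with adjusted p up to 0.0166 when 1 was left out.

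The set called in DMSO 11 was tied to gene length and level. Genes that were higher spanned a median of 42.2 kb of the genome and those that were lower 14.8 kb, beside 21.8 kb for all tested genes. Of the lower genes 42.9% had a mean of at least 300 CPM, as did 1.12% of the higher genes and 6.57% of all. Across all tested genes the median log2 ratio of DMSO 11 was 0.60 for genes over 100 kb and -0.23 for genes up to 5 kb, and it was 0.35 for genes at 3 to 10 CPM and -0.49 for genes at or above 300 CPM. In the other lines these medians stayed between -0.17 and 0.20, with both ends in DMSO 5. DESeq2 split its 1269 calls into 652 higher and 617 lower, and after all libraries were thinned to the depth of the shallowest 311 were higher and 133 lower. The part of RNA make-up in these genes was not tested.

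DMSO 5 had the clearest set of genes that were on or off in 1 line. Mt1, a metallothionein that binds zinc and copper, had the largest deviance ratio of all genes tested, at 969 CPM in DMSO 5 and 6.05 to 13.6 CPM in the other 10 lines (log2 difference 6.83, SE 0.23, adjusted p = 7.75e-12). The neighbouring gene Mt2 had 40 counts in DMSO 5 (11.1 CPM) and at most 1.38 CPM elsewhere, below the mean level needed for the test. Metallothionein genes respond to metals through the factor MTF1, which binds metal response elements with a core close to TGCNCNC. The 250 bases before each start (RefSeq, GRCm38.p6, matches on either strand in capitals) are shown for the pair because Mt1 led the variable genes by that measure.

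Mt1, chr8:94178839-94179088 (+): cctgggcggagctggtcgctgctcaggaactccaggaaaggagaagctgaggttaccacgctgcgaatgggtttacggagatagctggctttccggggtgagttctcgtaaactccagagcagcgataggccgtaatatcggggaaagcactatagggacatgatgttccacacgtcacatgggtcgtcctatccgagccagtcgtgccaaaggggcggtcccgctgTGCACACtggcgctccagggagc
Mt2, chr8:94172368-94172617 (+): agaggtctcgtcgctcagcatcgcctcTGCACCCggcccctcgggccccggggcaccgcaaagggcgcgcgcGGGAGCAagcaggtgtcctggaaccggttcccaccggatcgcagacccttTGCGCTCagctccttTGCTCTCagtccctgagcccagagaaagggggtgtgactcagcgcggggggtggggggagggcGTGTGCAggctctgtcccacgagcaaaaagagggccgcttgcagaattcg

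From 250 bases before to 50 after the start, the core occurred 3 times at Mt1 and 6 times at Mt2. It was also found in 50.4% of all 27025 promoters, so its presence alone is common.

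Sdhaf4, an assembly factor of mitochondrial succinate dehydrogenase, was at 99.9 CPM in DMSO 5 and 0 to 0.828 CPM in the other lines (log2 difference 7.44). In counts this was 361 in DMSO 5 and at most 5 in any other library, although 6 of those libraries were deeper. Sdhaf4 reached the mean level needed for testing only through DMSO 5, so its call adds no support to these values. The calls of Tmem185b and Syce2 in DMSO 5 depended on single libraries among the other 10, and held in 2 and 6 of 10 fits with 1 left out (adjusted p up to 0.0273 and 0.0114). The other higher genes were Tmem185b, a membrane protein gene, at 27.1 CPM against 0 to 3.65, and 3830406C13Rik, named after its values were seen, at 39.8 CPM against at most 0.235. Both also reached the mean level needed for testing only through DMSO 5. Tlr1, a receptor for bacterial lipopeptides, Zeb1, a transcriptional repressor, Mier2 and Trim32, chosen for display after their values were seen, had 31 to 48 counts in DMSO 5 and at most 7 counts in any other line, and were too low on average to be tested.

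Genes that were near 0 in DMSO 5 alone included several of the lymphocyte surface. Ly9, a SLAM family receptor, had 4 counts, or 1.11 CPM, in DMSO 5 and 37.2 to 94.7 CPM in the other 10 lines (log2 difference -6.00, SE 0.78, adjusted p = 0.00148). Adgre5, the adhesion receptor CD97, was also at 4 counts against 20.2 to 56.5 CPM (adjusted p = 0.00213), and Il7r, which did not pass this test, at 4 counts against 10.9 to 114 CPM. The largest in level was Tceal9, an X-linked gene related to an elongation factor, with 4.43 CPM in DMSO 5 against 92.0 to 161 CPM (-4.86, SE 0.47, adjusted p = 3.12e-05). Syce2, a protein of the meiotic synaptonemal complex, Nipsnap3b and the lactate exporter gene Slc16a3 had 4 counts each, of which Slc16a3 did not pass the test. Akr1e1, an aldo-keto reductase gene, and Plk2, a kinase gene regulated by p53 that did not pass the test, had 0 counts. At the depth of DMSO 5, 3 counts equal 0.830 CPM, so the median of the other lines was at least 33.2-fold higher for Akr1e1 and at least 23.5-fold higher for Plk2. These genes lie on different chromosomes, apart from Syce2 and Adgre5 on chromosome 8 and Akr1e1 and Plk2 on chromosome 13.

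**Figure D3:**
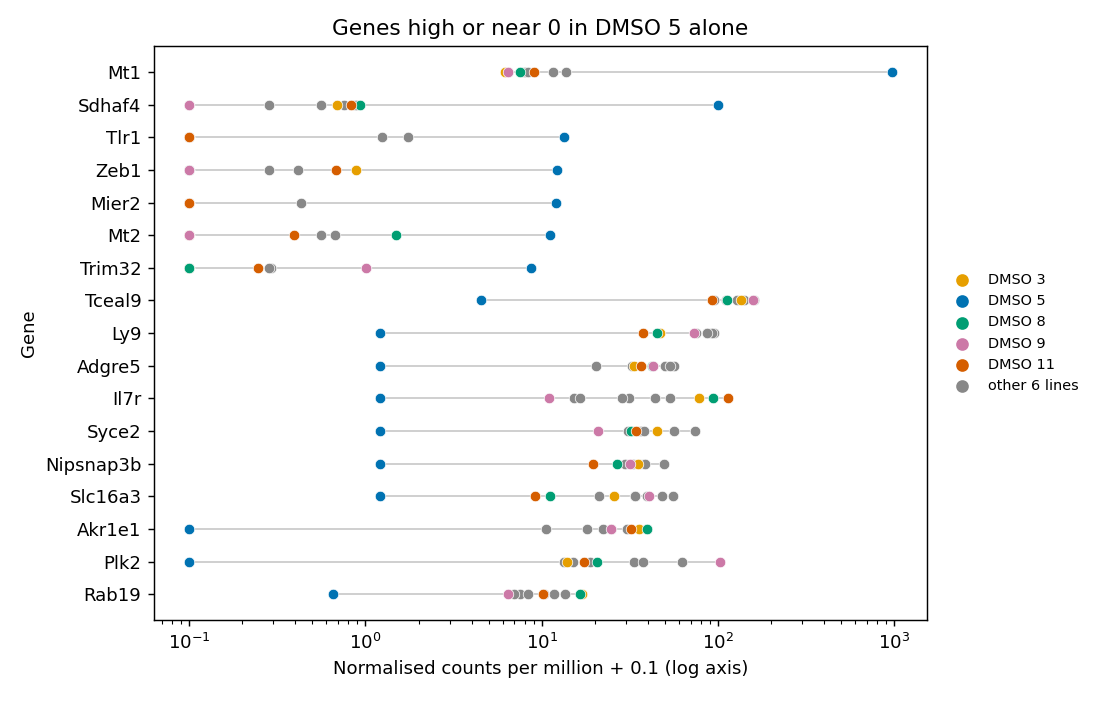
Levels in the 11 DMSO lines of 17 genes that were at least 8-fold above or below every other line in DMSO 5, with CPM plus 0.1 on a log x axis and 1 point for each line. The upper 7 genes are highest in DMSO 5 (blue) and the lower 10 are lowest in it, as the choice of genes requires.

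By the same rule, at least 8-fold beyond every other line with at least 20 counts, 23 genes were gained and 10 lost over the 11 lines. DMSO 5 accounted for 8 of the gained and all 10 of the lost genes. The rule depends on depth and on its factor. After thinning there were 5 gained and 3 lost genes, of which DMSO 5 had 3 and 3. At a factor of 4, DMSO 11 had 20 gained and 8 lost and DMSO 5 had 10 gained and 14 lost. DMSO 6 gained 5 genes, led by Slc6a13, a transporter of GABA and taurine, at 32.5 CPM (99 counts) against at most 3.87 CPM, and with Igkv3-2, Tfpi, an inhibitor of coagulation, Alkbh3, a demethylase that repairs alkylated nucleic acids, and Pla2g5, a phospholipase, below it. DMSO 8 gained Iglc1, Tgfb3, a growth factor of the TGF-beta family, and Clec2h, a C-type lectin gene. In DMSO 4 it was Ccnd2, cyclin D2, with 61 counts (9.63 CPM). DMSO 9 gained Pcp4, a calmodulin regulator, at 68.9 CPM against 1.61 to 8.55 CPM, from 76 counts. DMSO 1, 2 and 7 gained 1 low gene each, Nell2, Pdzrn4 and Krt80, DMSO 11 gained 2 genes without a settled protein product, 1 antisense and 1 of unconfirmed type that lies within Cth, and DMSO 3 and DMSO 10 gained none.

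A few genes were near 0 in a pair of lines and expressed in the rest. Fundc1, an X-linked receptor for mitophagy, measured 1.33 CPM in DMSO 1 and 0.552 in DMSO 8 and 35.6 to 65.2 CPM in the other 9 lines. Apool, an X-linked protein of the mitochondrial cristae complex, was at 4.14 and 2.63 CPM in DMSO 10 and DMSO 11 and at 79.2 to 150 CPM in the other 9. Both genes were chosen for such a gap. Tested genes nearby had levels of their own. Maoa, ahead of Fundc1 (X, 17556564 to 17572325), was at 50.4 and 55.5 CPM in DMSO 1 and DMSO 8, and Sh3bgrl, ahead of Apool (X, 112311334 to 112372755), at 96.1 and 140 CPM in DMSO 10 and DMSO 11. Gm6377, which overlaps the end of Sh3bgrl and was named after its values were seen, measured 7.36 and 2.63 CPM in DMSO 10 and DMSO 11 and 1.10 to 32.6 CPM in the other lines. In DMSO 9, Tmem18 and Slc35f2 had 0 counts and were at 12.4 to 20.99 and 11.9 to 31.7 CPM in the other lines. Neither was called in DMSO 9, but with p adjusted over all 11 comparisons together Tmem18 was (adjusted p = 0.00454, edgeR quasi-likelihood test).

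Whole chromosomes differed as well. Over 289 genes of chromosome 9 with a mean of at least 20 CPM, the median log2 ratio to the middle line was -0.19, -0.16, 0.21, 0.32, -0.22, 0, -0.20, 0.24, -0.22, 0.27 and 0.37 in DMSO 1 to DMSO 11. DMSO 3, 4, 8, 10 and 11 were above the middle line, DMSO 6, and DMSO 1, 2, 5, 7 and 9 below it. The distance between the highest and the lowest line was 0.59 for chromosome 9 (0.54 without DMSO 11), whereas the next largest was 0.36 for chromosome X. The shift ran along the whole chromosome. In running medians of 51 neighbouring genes, all 239 windows were above 0 in DMSO 3, 4, 8, 10 and 11, and 0 of 239 in DMSO 1, 2, 5, 7 and 9. Neighbouring windows share most of their genes and are not independent. Windows on 1 side of 0 also occurred with smaller medians, as on chromosome 5 in DMSO 8 (all 251 above 0, median 0.072). Between 74.0% and 89.6% of the chromosome 9 genes were above 0 in the first set of lines, where 43.1% to 50% of all genes at that level were. In the second set it was between 10.4% and 25.3%, where 39.7% to 50% were. The shift was spread over many genes by small amounts, and 22 of the 510 tested genes of chromosome 9 were variable one by one (4.31%, beside 3.5% of all genes).

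**Figure D4:**
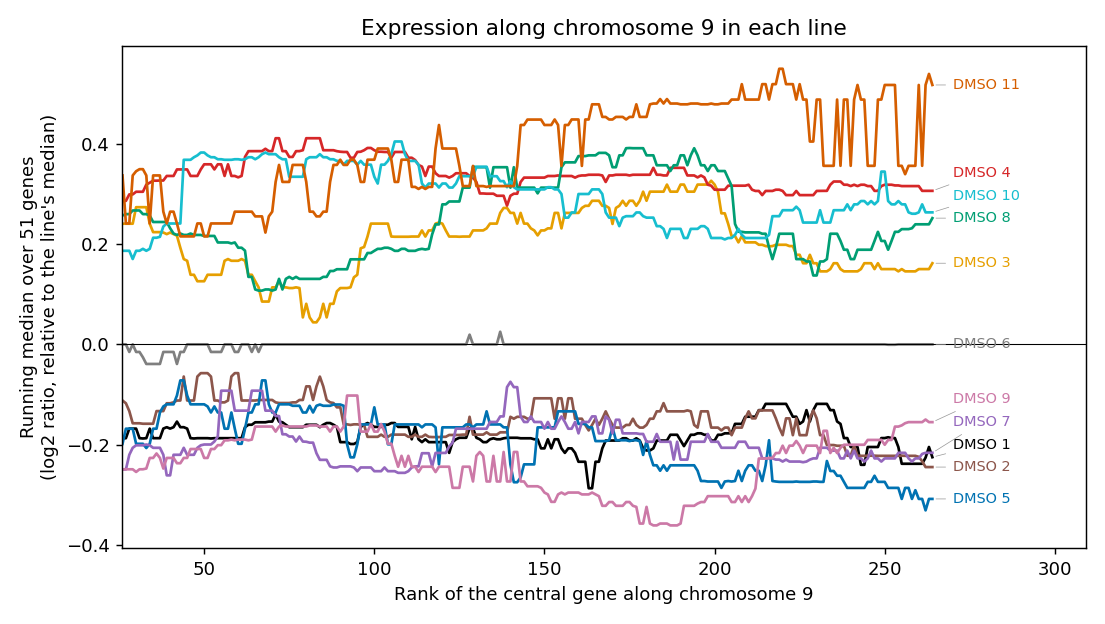
Running median over 51 neighbouring genes of the log2 ratio of each DMSO line to the middle level, relative to the line's median over all genes (y axis), against the order of genes on chromosome 9 (x axis, rank of the central gene). DMSO 3, 4, 8, 10 and 11 run above 0 and DMSO 1, 2, 5, 7 and 9 below 0 for the length of the chromosome, with DMSO 6 at or near 0.

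On chromosome 18, only DMSO 6 stood apart, with a median of 0.25 over 127 genes, all 77 windows between 0.247 and 0.362, and 78.0% of the genes above 0. The other 10 lines lay between -0.093 and 0.056. Chromosome X had a median of -0.26 in DMSO 11 (153 genes, all 103 windows below 0), and -0.073 to 0.098 in the other lines. On that chromosome all 103 windows were above 0 in DMSO 2 and DMSO 5, and 0 of 103 in DMSO 10. Windows of DMSO 11 also ranged widely elsewhere, from -0.20 to 0.58 on chromosome 19. The part of gene length and level in the chromosome X value of DMSO 11 was not tested. A smaller shift was seen on chromosome 19 in DMSO 8, 0.14 over 217 genes. Chromosome copy number was not measured, and changes in DNA and in transcription cannot be told apart from these counts.

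**Figure D5:**
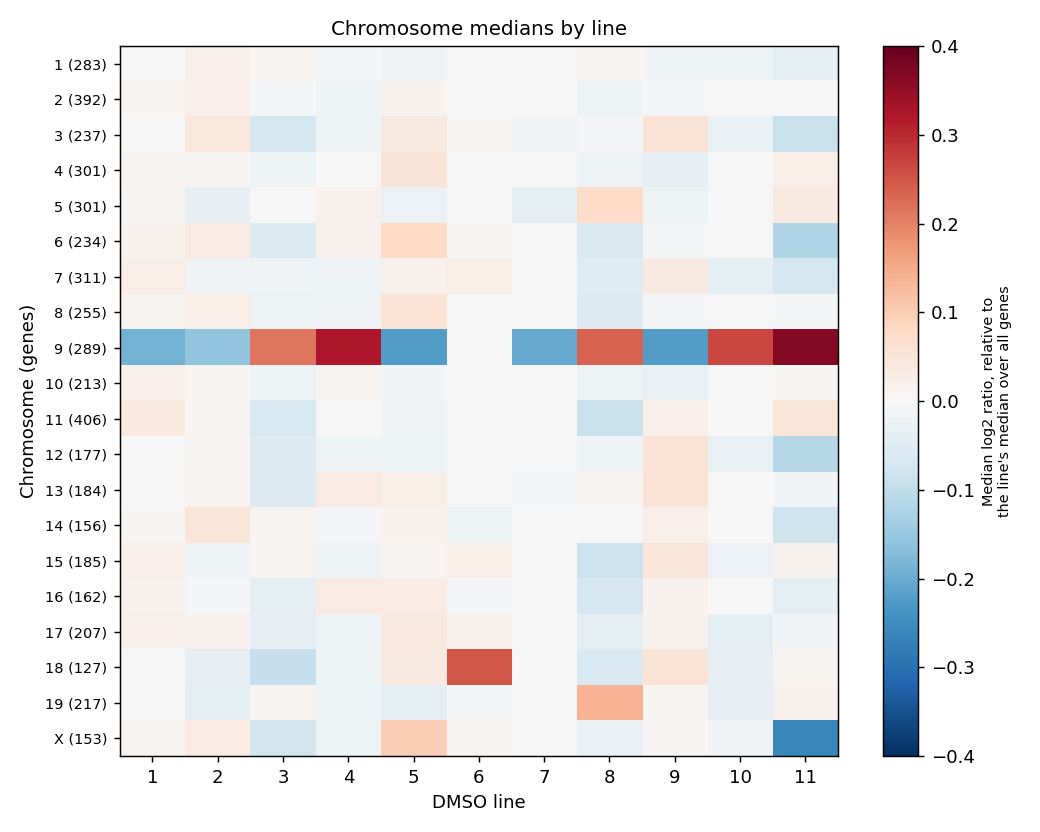
Median log2 ratio of each chromosome (rows, number of genes in parentheses) in each DMSO line (columns) to the middle level of the 11 lines, relative to the line's median over all genes. Chromosome 9 splits the lines on both sides of 0, and chromosome 18 in DMSO 6, chromosome X in DMSO 11 and chromosome 19 in DMSO 8 are the other strong colours.

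Over all genes tested, the lines were not equally far from each other. The mean Euclidean distance of a line to the other 10, on log2 CPM with a prior count of 2, was 65.7 (DMSO 2) to 74.2 (DMSO 8) in 7 of the lines, 78.4 in DMSO 10, 80.0 in DMSO 5, 95.7 in DMSO 9 and 98.8 in DMSO 11. The closest lines were DMSO 1 and DMSO 2, at a distance of 48.4, and DMSO 8 and DMSO 11 were both nearest to DMSO 3. After thinning to equal depth the mean distance of DMSO 9 was 78.8 and that of DMSO 11 was 93.5. The mean distance and the log10 total were not significantly related over the 11 lines (Pearson r = -0.434, permutation p = 0.174, and Spearman rho = -0.409, permutation p = 0.215). Without DMSO 9 and DMSO 10, the 2 lines farthest from the median log10 total, r was 0.217 and rho was -0.283. The first principal component held 31.2% of the variance and placed DMSO 11 (69.4), DMSO 3 (22.1) and DMSO 8 (22.02) at 1 end and DMSO 9 (-49.0), DMSO 5 (-22.3) and DMSO 6 (-20.4) at the other.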

How the data were processed

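RNA from each line was made into 1 barcoded 3′-end digital gene expression library with a random molecular identifier, in 2 subpools of 15 lines. The authors aligned reads to GRCm38 (mm10) with STAR (2.5.1b in the submitters' processing notes) and deposited raw counts per gene, not normalised or filtered. Collapsing of identifiers and the subpool of each line are not given in the sources used here, so counts may not be independent molecules and subpool was not modelled. Symbols and positions were from gencode M21 where the methods name M25. A symbol was found for 55141 of 55401 identifiers. Unused columns of per-sample values outside the series numbered 0.

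The deposited counts of the 11 libraries were scaled with TMM factors (edgeR 4.0.16, R 4.3.3). Genes with a mean of at least 3 CPM were tested. Spread between lines was tested with the goodness-of-fit deviance on 10 degrees of freedom at the trended dispersion, and at dispersion 0 for counting error. Each line was tested against the other 10 with the robust quasi-likelihood test, threshold 0.01 after Benjamini-Hochberg adjustment. SEs were derived from the fold change and F statistic. Replicates are separate wells, so p-values measure the spread between lines and their libraries. No 2 libraries were alike within counting error. List, chromosome and promoter values have no test. Log2 ratios used a prior count of 2. The middle level is the median of the 11 lines.

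The lines, gene lists and tests were chosen with earlier results of these data known. The genes named were the 25 with the largest deviance ratio and a mean of at least 10 CPM, the 6 highest and 6 lowest called genes of DMSO 11, 8, 3 and 5 (for other lines the 2 highest and 2 lowest), the 4 members of a list with the largest coefficient of variation, and 3 gained and 3 lost genes of a line. Genes named beyond these (among them Asns, Atf4, Gars, Slc7a5, Ddit3, Aldoa, Eno1, Ldha, Gpi1, Slc16a1, Cd93, Igkj4, Mt2 and the other immunoglobulin and lost genes) and the genes near 0 in a pair of lines were chosen after their values were seen. The latter had a gap of at least 8-fold between neighbouring levels, CPM plus 1, with at least 10 CPM above it. The scripts were tested on simulated data. Alternatives were DESeq2 1.42.0, its size factors, other filters, thinning to 1053948 counts, each line left out, ribosomal RNA genes left out and a joint adjustment over the 11 comparisons. An item withheld for evaluation is not reported here.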

Additional observations from a re-analysis of the deposited data

How the results depend on the processing

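The number of variable genes was 316 and stayed between 243 and 329 under the other settings, apart from 198 with the filterByExpr filter, and between 282 and 305 with each line left out. Genes beyond counting error fell from 8434 to 5563 after thinning. DMSO 11 had 738 called genes, 444 after thinning, 1269 with DESeq2, 167 with p adjusted over all 11 comparisons together and 519 to 876 with 1 of the other lines left out. DMSO 5 had 10, and 2 with filterByExpr, 18 without a filter, 5 after thinning, 18 with DESeq2 and 8 to 10 with 1 other line left out. Of the lines with 0 called genes, DMSO 4 had 1 (Ccnd2) without a filter, DMSO 6 had 4 without a filter and 1 after thinning, DMSO 8 had 1 with DESeq2 and 0 to 1 with a line left out (1 without DMSO 1 and 1 without DMSO 3), and DMSO 9 had 2 each without a filter, with DESeq2 and with the joint adjustment. DMSO 3 had 0 in each. Genes private to a line were 23 gained and 10 lost, 5 and 3 after thinning, and 53 and 25 at a factor of 4. The mean distance of DMSO 9 was 78.8 after thinning and 81.8 with a prior count of 5. The 37 alternatives for chromosome medians and the 62 for list medians moved by less than 1 SD between lines. Among genes named in the single-line tests, 71 alternative values lost the call, 271 kept it and 0 changed direction. The causes were not tested. No paired analysis was possible because all 11 libraries belong to 1 group. Depth limits DMSO 9 most, where 3 counts are 2.72 CPM, and low genes there cannot be called absent.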
